A study of Drosophila melanogaster with 33 samples.

Results

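The nuclear genes of oxidative phosphorylation were examined for Lola-I peaks at their promoters in *Drosophila melanogaster* embryos. Members were the nuclear genes of the Ensembl annotation whose symbol starts with ND-, ATPsyn, UQCR- or Sdh, or with COX and a digit. There were 88 such genes, all protein-coding, of 13968 protein-coding genes with a transcription start site (TSS) on the chromosome arms. They divide into 40 genes of complex I, 8 of complex II, 9 of complex III, 16 of complex IV and 15 of complex V. The series holds 33 chromatin immunoprecipitation sequencing (ChIP-seq) samples in 12 groups, and the 2 used here are the Lola-I libraries from whole wild-type OregonR embryos aged 14 to 17 h. Chromatin was fixed with formaldehyde and precipitated with a custom rabbit polyclonal antibody against Lola-I, a zinc finger protein made from the gene *lola*. Whole embryos pool all cell types, so binding in a few cells and weak binding in many cannot be told apart. The other 31 samples (GAF, the RNA polymerase II subunit Rpb3 and WCE libraries, in wild-type, Lola-I mutant ORC4 and Lola-I rescue ORC4 embryos) were not analysed here.

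Oxidative phosphorylation is carried out in the inner mitochondrial membrane. Complex I oxidises NADH and complex II oxidises succinate. Complex III passes the electrons through cytochrome *c* to complex IV, which reduces oxygen. The proton gradient built on the way drives complex V, the ATP synthase. Most subunits are encoded in the nucleus, the rest in the mitochondrial genome, and every complex except complex II mixes both kinds. Several nuclear subunits of the fly also have a duplicate gene, named after its parent with the letter L, and such duplicates are known in flies mostly for expression in the testis.

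Each library came with 1 list of peaks called by the authors, of 1759 peaks in replicate 1 and 9674 in replicate 2. A gene was counted when the summit of a peak, the position of its highest signal, lay within 200 bp of one of its TSSs. Peaks are ranked within their own list, with rank 1 for the highest score. Fold enrichment is the authors' value for each peak, and its scale may differ between the lists. The lists give no read counts, so the depth behind a peak is unknown. With 1 list per library no spread between libraries can be estimated for a gene. No significance test was made, and counts are set beside the share of all protein-coding genes.

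In replicate 2, 28 of the 88 members had a promoter summit, 31.8%, against 30.9% of all protein-coding genes. In replicate 1 the count was 2, or 2.27%, against 5.50%. The same 2 genes, *UQCR-Q* and *ATPsynC*, were the members with a promoter summit in both lists, 2.27% against 5.23% of protein-coding genes. Taken whole, the gene set was thus close to the background in the longer list and below it in the shorter one. The replicate 2 share was made up of unequal parts. All of the 28 genes were among the 64 members that are not L-named duplicates (43.8%), and none of the 24 L-named duplicates had a promoter summit in either list. The median number of annotated TSSs was 1.5 at the 64 members, and 1.0 at the duplicates and at all protein-coding genes. A gene with more TSSs has more places where a summit is counted, and whether this bears on the counts was not tested.

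**Figure D1:**
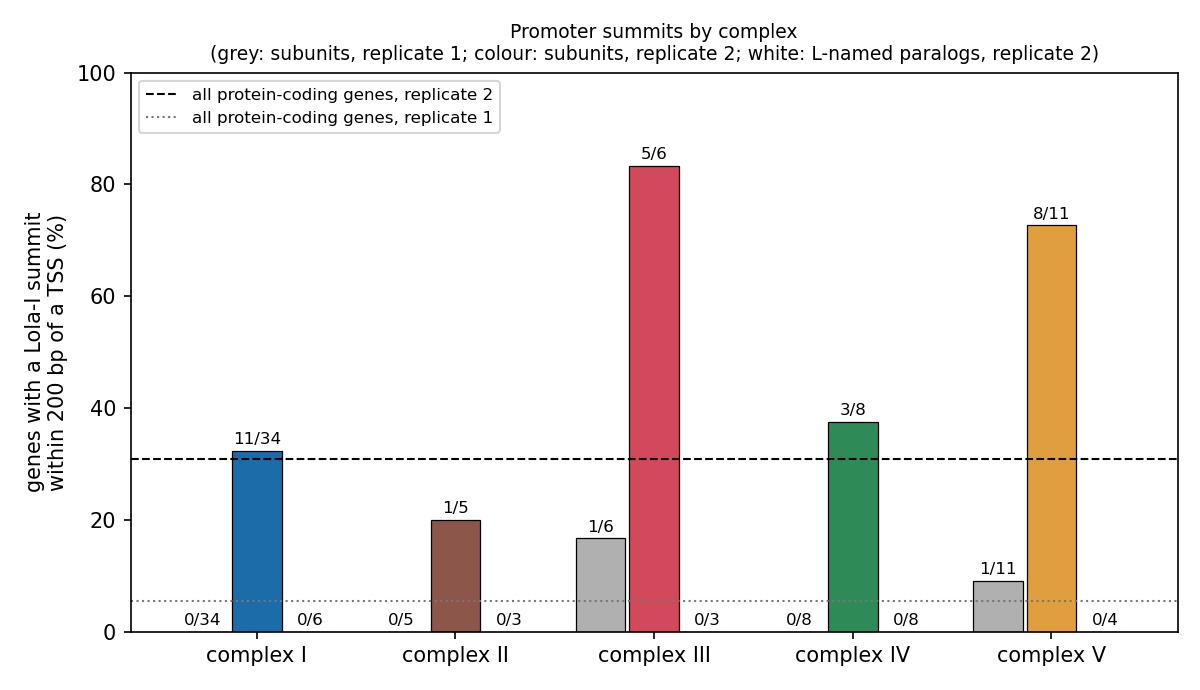
Share of genes with a Lola-I summit within 200 bp of a TSS (vertical axis, %) for each complex, for subunits in replicate 1 (grey), subunits in replicate 2 (colour) and L-named duplicates in replicate 2 (white), with the number of genes above each bar. The dashed and dotted lines are all protein-coding genes in replicate 2 (30.9%) and replicate 1 (5.50%); complexes III and V stand highest, at 5 of 6 and 8 of 11 subunits, and every L-named bar is at 0.

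*UQCR-Q* (FBgn0036728; dm6, 3L from 17474761 to 17476124, plus strand) encodes the small ubiquinone-binding subunit of complex III. It had the highest-ranked peak of any member in each list. In replicate 1 the peak spanned 17474837 to 17475167, with a fold enrichment of 21.2 and rank 121 of 1759. In replicate 2 it spanned 17474800 to 17475209, with a fold enrichment of 156 and rank 121 of 9674. The summits, at 17474992 and 17474993, were a single base apart. *UQCR-Q* has 2 annotated TSSs, and the summit lay 57 bp (replicate 1) and 56 bp (replicate 2) upstream of the inner one. From the outer TSS it lay 231 and 232 bp downstream, beyond the 200 bp limit. The annotation places the summit in an exon that some transcripts from the outer TSS carry in their 5′ UTR.

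*ATPsynC* (FBgn0039830; 3R from 31216145 to 31219630, minus strand) encodes subunit c, which forms the proton-conducting ring of the ATP synthase. Its replicate 1 peak spanned 31219570 to 31219820, with a fold enrichment of 4.84 and rank 730. The replicate 2 peak spanned 31219281 to 31219882, with a fold enrichment of 24.3 and rank 1064. The summits lay 89 and 79 bp upstream of the outermost of 3 TSSs, in intergenic sequence. The peaks differ in width, at 251 and 602 bp. A further TSS of *ATPsynC* lies 71 bp inside the outermost one, with the summits at -160 and -150 bp from it.

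A peak ranked between these in replicate 2 was found in that list only. *ATPsynCF6* (FBgn0016119; 3R from 23355220 to 23356064, minus strand) encodes coupling factor 6 of the stalk that holds the catalytic head still. Its replicate 2 peak had rank 1039 and a fold enrichment of 21.3, with the summit 6 bp downstream of a TSS. In replicate 1 the nearest summit was 18468 bp away. The replicate 2 list was divided by score into 10 classes of equal size, class 1 the highest. Among protein-coding promoter peaks of class 2, where *ATPsynCF6* fell, 198 of 465 (42.6%) overlapped a replicate 1 peak. Of the 4 members in class 2, *ATPsynC* alone did.

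**Figure D2:**
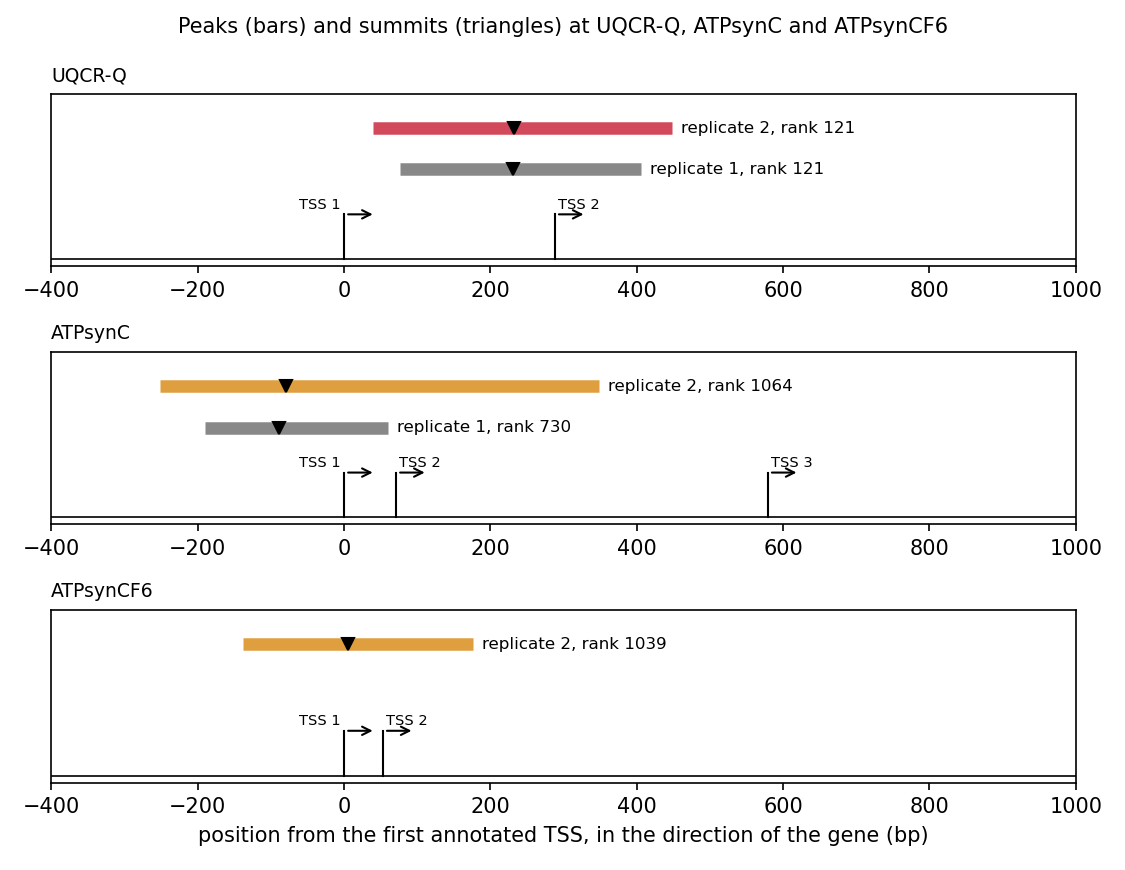
Peaks (bars) and summits (triangles) at *UQCR-Q*, *ATPsynC* and *ATPsynCF6*, with the annotated TSSs as arrows; the horizontal axis is the distance in bp from the first TSS in the direction of the gene, grey bars are replicate 1 and coloured bars replicate 2. The summits of both lists fall together before the inner TSS of *UQCR-Q* and before the outermost TSS of *ATPsynC*, and *ATPsynCF6* has a bar in replicate 2 only.

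The reference sequence near these 3 summits is shown because they are the highest-ranked peaks of the gene set. It is RefSeq Release 6 (dm6), in the direction of the gene, and covers chr3L:17474978-17475007 (plus strand), chr3R:31219664-31219804 and chr3R:23356085-23356114 (both minus strand). Capitals mark 2 words, AAAGCT and Motif 1 (GGTCACAC), sought on either strand. AAAGCT was the word most typical of Lola-I promoter peaks in earlier results on these lists, and Motif 1 is a core promoter element of broadly expressed fly genes, bound by M1BP.
UQCR-Q: ttagcttctgtccaagacatcaatcttaaa
ATPsynC: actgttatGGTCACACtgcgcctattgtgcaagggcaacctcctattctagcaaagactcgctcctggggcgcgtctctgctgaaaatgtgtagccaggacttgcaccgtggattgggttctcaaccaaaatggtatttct
ATPsynCF6: ttactatttaaAAAGCTtacgtccaatagt
The stretch of *UQCR-Q* is centred on its summit and holds neither word, that of *ATPsynC* includes its summit, and that of *ATPsynCF6* lies upstream of its summit. Within 100 bp of the replicate 2 summit, *UQCR-Q* and *ATPsynC* each had 1 Motif 1 match, far from the summit, at 89 bp downstream and 83 bp upstream. Neither had AAAGCT there in either list, whereas 569 of 767 protein-coding promoter peaks of replicate 1 had it (74.2%). *ATPsynCF6* had AAAGCT 42 bp upstream of its summit, 36 bp upstream of the TSS, and was the only one of the 28 members with it.

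By complex, promoter summits in replicate 2 were most frequent in complexes III and V. Without the L-named genes, 5 of 6 subunits of complex III had one (83.3%) and 8 of 11 of complex V (72.7%), against 30.9% of protein-coding genes. The count was 11 of 34 in complex I (32.4%), 3 of 8 in complex IV (37.5%) and 1 of 5 in complex II. In complexes III and V the counts include *UQCR-C1*, *ATPsynD*, *ATPsynF* and *ATPsynbeta*, whose summits also lie near a TSS of another gene. Whether the complexes differ was not tested, and several of these counts rest on few genes. The finer groups below were formed after their values were seen.

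Complex I has a catalytic core surrounded by accessory subunits. Of the 7 nuclear core subunits, *ND-20* alone had one, at rank 8042 with a fold enrichment of 3.25. *ND-75*, *ND-51*, *ND-24*, *ND-49*, *ND-30* and *ND-23* had none. Of 27 accessory subunits 10 had a summit (37.0%, against 30.9% of protein-coding genes). The highest was at *ND-B8*, rank 1732 and fold enrichment 13.1, but its summit lay 100 bp from the TSS of *ND-B8* and 73 bp from that of the neighbour *Secp43*. *ND-PDSW* followed at rank 3816 (fold enrichment 6.44), with the TSS of the dosage compensation gene *msl-2* 6 bp from the summit and its own 39 bp away. The rest were *ND-B14.5A* (rank 4927), *ND-B18* (5088), *ND-19* (5587), *ND-15* (5850), *ND-B17* (6185), *ND-MLRQ* (6491), *ND-SGDH* (8151) and *ND-MWFE* (9180). *ND-MLRQ* is the orthologue of human NDUFA4, now counted to complex IV in mammals.

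Complex II has a flavoprotein (*SdhA*), an iron-sulfur protein (*SdhB*) and the membrane anchors *SdhC* and *SdhD*. *SdhB* had a replicate 2 summit 22 bp upstream of its TSS, at rank 6659 with a fold enrichment of 4.14. *SdhC* had its nearest summit 401 bp upstream, and *SdhA* and *SdhD* had none within 1000 bp. *Sdhaf3*, an assembly factor that the symbol rule includes, had none either.

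In complex III, both core proteins had a replicate 2 summit. That of *UQCR-C1* lay 2 bp downstream of the TSS (rank 5737, fold enrichment 4.48), with a TSS of the cyclin gene *CycC* 28 bp away. That of *UQCR-C2* lay 36 bp upstream (rank 5423, fold enrichment 4.61). The small subunits *UQCR-14* (rank 3457, fold enrichment 8.57) and *UQCR-11* (rank 7002, fold enrichment 4.43) also had one. *UQCR-6.4* was the only subunit without. These 4 ranked far below *UQCR-Q*.

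In complex IV, *COX6B* (rank 2553, fold enrichment 8.04), *COX5A* (rank 4664, fold enrichment 5.56) and *COX8* (rank 5937, fold enrichment 4.88) had a summit. The summit of *COX6B* lay 47 bp from its TSS and equally far from the nearest TSS among those of *CG18809*, *CG33932* and *Rpp20*. *COX4*, *COX5B*, *COX7A*, *COX7B* and *COX7C* had none. The threshold mattered for a pair of them: the nearest summits lay 266 bp from the TSS of *COX5B* and 311 bp from that of *COX7C*, next outside the limit after *COX7AL2* at 257 bp. The farthest of those inside were *ND-B8* at 100 bp and *ATPsynC* and *ATPsynbeta* at 79 bp each. In replicate 1, *UQCR-Q* at 57 bp and *ATPsynC* at 89 bp were inside, and the next members were *COX7AL2* at 610 bp, *ND-B14.5B* at 841 bp and *ATPsynD* at 1831 bp.

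In the ATP synthase, each of the 4 genes of the peripheral stalk had a replicate 2 summit. These are *ATPsynCF6*, *ATPsynB* (rank 5773, fold enrichment 4.43), *ATPsynD* (rank 5870, fold enrichment 4.80) and *ATPsynO* (rank 6323, fold enrichment 3.99). The summit of *ATPsynD* lay 42 bp upstream of its TSS and 53 bp from that of *mRpL55*, a mitochondrial ribosomal protein gene. The background for counts in these groups is again 30.9% of protein-coding genes. Subunit c of the rotor (*ATPsynC*) had a summit in both lists. The alpha subunit *blw*, outside the symbol rule, had one in replicate 2 at rank 4896. Of beta, gamma and delta, which also belong to the catalytic head and the rotor, 1 of 3 had a summit. It was *ATPsynbeta*, on the fourth chromosome, at rank 8272 (fold enrichment 2.94), with a TSS of *CG11076* 28 bp from the summit and its own 79 bp away. *ATPsynF* (rank 1792, fold enrichment 13.0, its summit 65 bp from its own TSS and 61 bp from that of *CG3548*) and *ATPsynE* (rank 6354, fold enrichment 4.18) had one among the small membrane subunits, and *ATPsynG* had none. *ND-49*, the other member on the fourth chromosome, had its nearest summit 12870 bp away.

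Most member peaks ranked in the lower part of the replicate 2 list. The median rank of the 28 was 5755 of 9674, with a median fold enrichment of 4.84 and a range from 2.58 to 156. The 4436 promoter peaks of protein-coding genes had a median rank of 4456 and a median fold enrichment of 5.78. Of the member peaks, 9 (32.1%) stood in the upper part of the list when it was divided at its middle, against 54.4% of all promoter peaks. Above it were *UQCR-Q*, *ATPsynCF6*, *ATPsynC*, *ND-B8*, *ATPsynF*, *COX6B*, *UQCR-14*, *ND-PDSW* and *COX5A*, and 5 of these 9 share their summit with another gene. Detection in replicate 1 was rare for peaks ranked low: among protein-coding promoter peaks of score classes 6 to 10, 9 of 2025 (0.444%) overlapped a replicate 1 peak, and 19 of the 28 member peaks fell there.

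**Figure D3:**
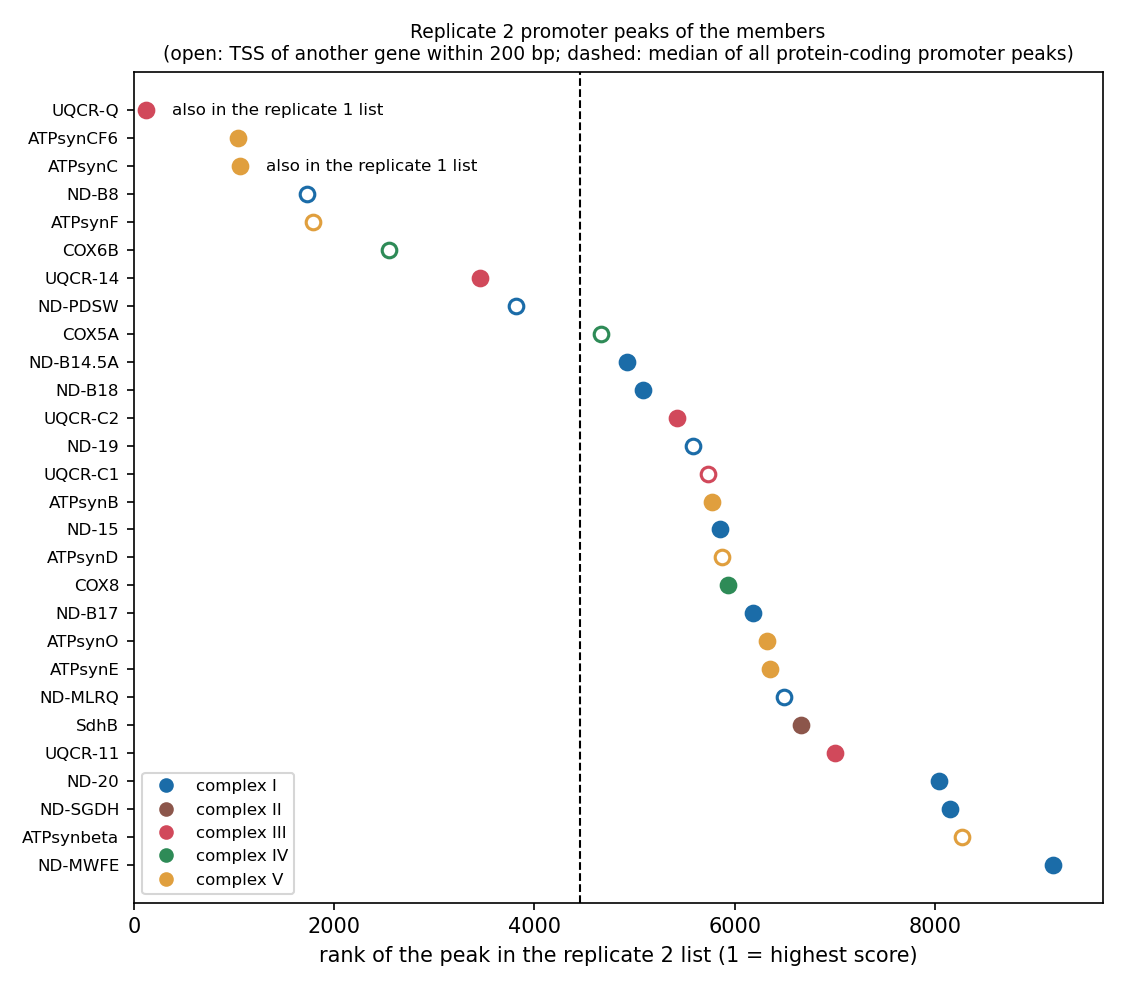
Rank in the replicate 2 list (horizontal axis, 1 is the highest score) of the promoter peak of each of the 28 members that had one, coloured by complex, with open symbols where a TSS of another gene lies within 200 bp of the summit. The dashed line is the median rank of all protein-coding promoter peaks (4456); *UQCR-Q* stands far to the left at rank 121 and 20 of the 28 genes lie to the right of the line.

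The summits lay close to and mostly just upstream of the TSS. In replicate 2 the median position from the nearest TSS was -34 bp, with quartiles at -49.25 and -9.25 bp, against -38 bp (-73 and -6) at protein-coding genes. Of the 28 summits, 24 were upstream and 4 downstream, the farthest at -100 and 55 bp. All of them were within 100 bp, where 82.3% of the protein-coding summits lay. The downstream ones were those of *UQCR-14* and *UQCR-C1* (2 bp each), *ATPsynCF6* (6 bp) and *ND-MWFE* (55 bp). Of the 15 genes with more than 1 TSS, 8 had the summit nearest to the outermost TSS and 7, *UQCR-Q* among them, nearest to one inside the gene. Some of these TSSs lie close to each other, and the same split was not computed for all protein-coding genes.

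**Figure D4:**
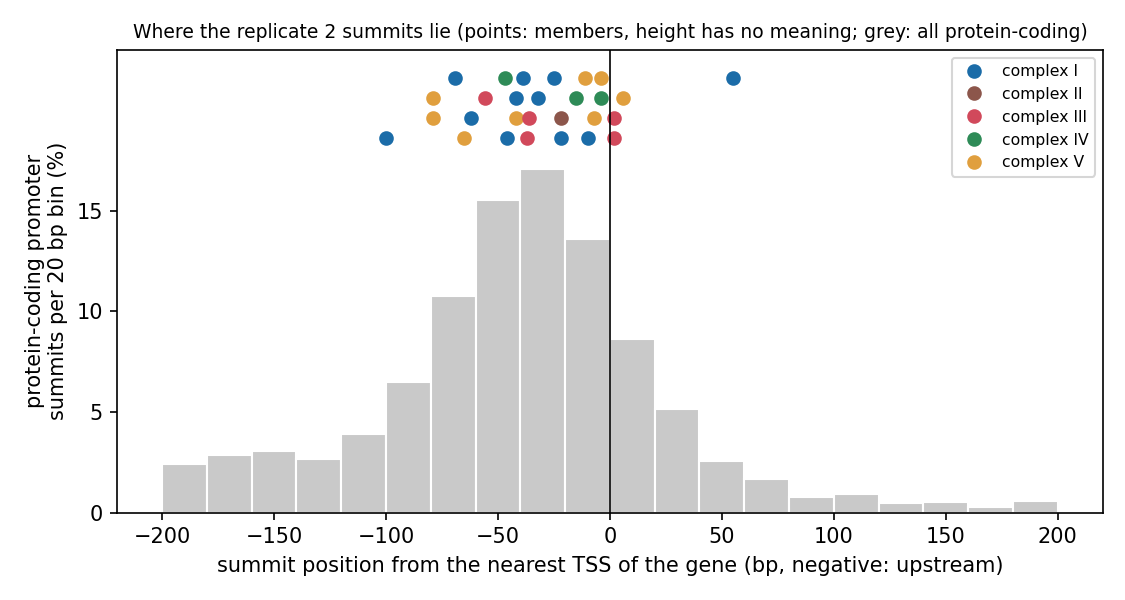
Position of the replicate 2 summit from the nearest TSS of its gene (horizontal axis, bp, negative upstream) for the 28 members (points, coloured by complex, stacked only to keep them apart) above a histogram of all protein-coding promoter summits (grey, % per 20 bp bin). The points run from -100 to 55 bp and lie over the main body of the histogram, without its tail beyond 100 bp.

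A neighbour that starts on the opposite strand no more than 500 bp upstream, here called head-to-head, was found at 39 of the 88 members (44.3%), against 29.6% of protein-coding genes. The share was 72.6% at the 73 mitochondrial ribosomal protein genes. At 10 of the 28 bound members (35.7%) a TSS of another gene lay within 200 bp of the summit, against 24.0% of bound protein-coding genes. At 5 of the 10 the other TSS was the nearer one: *ND-19*, *ND-B8*, *ND-PDSW*, *ATPsynF* and *ATPsynbeta*. Leaving out all 10 left 18 of 88 genes (*UQCR-Q*, *ATPsynC* and *ATPsynCF6* among them), with 24.5% of protein-coding genes left by the same rule. A summit between adjacent start sites cannot be assigned to either gene from these lists.

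The 24 L-named duplicates had no promoter summit, and 20 of them have their parent gene in the set. Those 20 belong to 18 parents, of which 7 had a replicate 2 summit: *ATPsynCF6*, *ATPsynbeta*, *ND-20*, *ND-B14.5A*, *SdhB*, *UQCR-11* and *UQCR-14*. At these the duplicates had their nearest summit between 771 bp (*SdhBL*) and 35709 bp (*ATPsynCF6L*) from a TSS. Within 1000 bp of a TSS 2 duplicates had a replicate 2 summit, *COX7AL2* and *SdhBL*. *COX5BL* and *COX7CL* lie directly downstream of their parents, with gaps of 123 and 282 bp, and the summit nearest to each parent is also nearest to the duplicate, 1897 and 1684 bp upstream of it. Of features that need no peak, a head-to-head neighbour was found at 3 of 24 duplicates (12.5%) and 36 of the 64 other members (56.2%), against 29.6% of protein-coding genes. Motif 1 was in the promoter window of 0 of 24 duplicates and 13 of 64 others (20.3%), against 7.09%. The DRE was in that of 0 of 24 and 6 of 64 (9.38%), against 8.08%, and none of these differences was tested.

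Short words were counted around the replicate 2 summits, and no difference in their shares was tested. AAAGCT occurred within 100 bp of 1 of 28 summits (3.57%), against 1178 of 4436 protein-coding promoter summits (26.6%). The share at protein-coding summits depends on rank. It was 65.6% in score classes 1 and 2 (members, 1 of 5), 20.1% in classes 3 to 5 (members, 0 of 4) and 13.1% in classes 6 to 10 (members, 0 of 19). GAGAG, the core of the site of GAF, occurred at 7 of 28 against 39.1%. Motif 1 occurred at 9 (32.1%) against 9.22%, the E-box CAGCTG at 11 (39.3%) against 18.2%, and the DRE (TATCGATA), the element bound by DREF, at 6 (21.4%) against 10.2%. The shares of these other words were not divided by rank. In replicate 1, protein-coding promoter summits had GAGAG at 49.8%, Motif 1 at 4.95%, the E-box at 21.6% and the DRE at 2.22%. At 6 summits none of these 5 words was found: those of *ND-20*, *ND-B8*, *ND-MLRQ*, *UQCR-11*, *COX5A* and *COX8*. A match is a description of the letters and does not show that a factor binds.

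**Figure D5:**
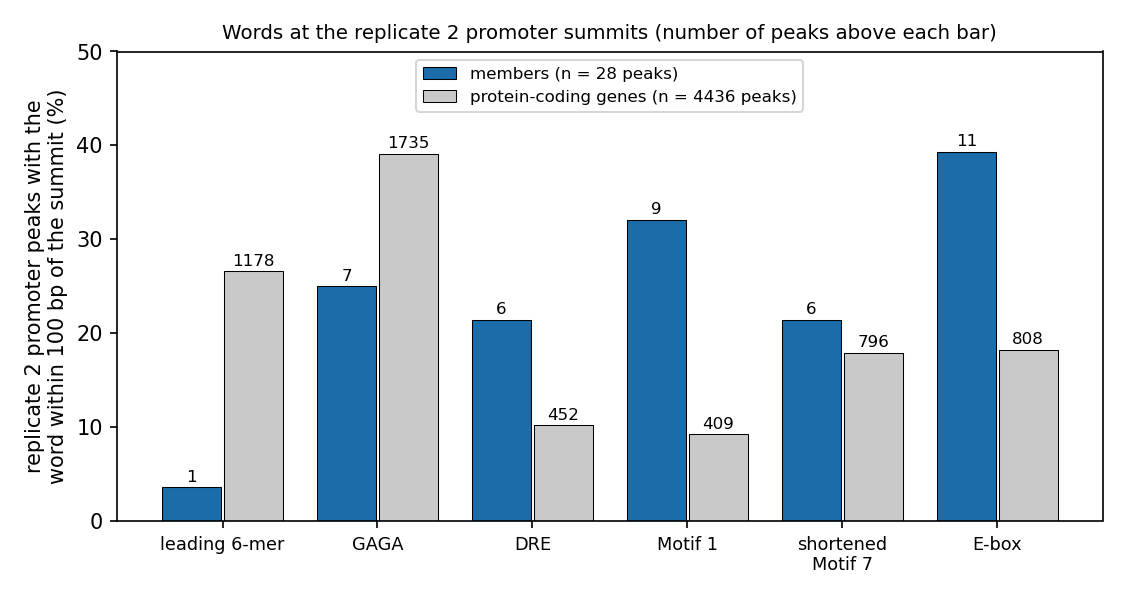
Share of replicate 2 promoter peaks with each word within 100 bp of the summit (vertical axis, %), for the 28 member peaks (blue) and the 4436 peaks of all protein-coding genes (grey), with the number of peaks above each bar; the leading 6-mer is AAAGCT. The member bars are lower for AAAGCT and GAGA and higher for the DRE, Motif 1 and the E-box.

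Sequences near 8 further summits are shown because they carry the words that were most frequent among the members, Motif 1 and the E-box. They are a choice among the 9 summits with Motif 1 and the 11 with an E-box. The shorter stretches are centred on the match and not on the summit. They are in the direction of the gene, with GGTCACAC and CAGCTG (on either strand) in capitals. Motif 1 was found at chr2L:15751075-15751165 (minus strand), chr2L:3466119-3466148 (plus), chr3L:16584232-16584261 (plus) and chr3L:12138464-12138493 (minus), in this order.
ND-B17: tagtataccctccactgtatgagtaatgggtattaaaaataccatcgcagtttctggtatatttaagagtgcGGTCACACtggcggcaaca
ND-PDSW: gtgcggcatagGTGTGACCactacctcgaa
UQCR-C2: gctggtactcgGTGTGACCattttggagcg
ND-SGDH: tctgcaaaaaGTGTGACCgtttgccgtgct
Its centre lay 31 bp from the summit at *ND-B17*, 16 bp at *ND-PDSW*, 10 bp at *UQCR-C2* and 4 bp at *ND-SGDH*. The E-box was found at chrX:2172459-2172549 (plus), chrX:15063881-15063910 (plus), chr3R:14890207-14890236 (plus) and chr3R:14327064-14327093 (plus).
ND-B14.5A: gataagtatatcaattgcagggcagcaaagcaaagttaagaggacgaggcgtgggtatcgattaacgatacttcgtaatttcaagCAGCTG
ND-B18: caacgctgtcagCAGCTGtcacttgcaaca
UQCR-C1: attttccacgaaCAGCTGactggccgcagc
ATPsynE: tgtcagttttgaCAGCTGttttaaggttat
At *ND-B18* the nearest E-box match lay 9 bp from the summit, at *UQCR-C1* 11 bp, at *ATPsynE* 18 bp and at *ND-B14.5A* 43 bp. Over the 9 summits with Motif 1 the median distance of the nearest match was 31 bp, and over the 11 with an E-box it was 36 bp. The largest distances were 89 bp for Motif 1 and 69 bp for the E-box.

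The same words were counted at the promoters of all 88 members, with a promoter summit or without. The window ran from -150 to 50 bp of 1 TSS per gene, the one shared by most transcripts (the upstream one where tied). Motif 1 was present at 14.8% of members and 7.09% of protein-coding promoters. The E-box was present at 22 of 88 members and 14.2% of protein-coding promoters, and the shortened Motif 7 (CAGCNCT) at 18.2% and 12.8%. AAAGCT was present at 6.82% against 15.8%, the overlapping word AAGCTC at 4.55% against 9.72%, and GAGAG at 13.6% of members against 3219 of 13968 promoters. The DRE was present at 6.82% against 8.08%. The 73 mitochondrial ribosomal protein genes had the E-box at 53.4%, Motif 1 at 11.0%, AAAGCT at 8.22%, GAGAG at 11.0% and the DRE at 20.5%. TATAAA from -45 to -15 stood at 4.55% against 8.84%, and the initiator core TCAGT from -10 to 10 at 5.68% against 12.7%, both in the direction of the gene only. CTTTC or CTTTT from -2 to 8, the polypyrimidine initiator, was at none of the members and 2.15% of protein-coding promoters. The centre of the site of NRF-1 (CGCATGCG) and the NRG element, both described at nuclear genes for mitochondrial proteins, were found at none of the members, and at 0.523% and 0.408% of protein-coding promoters. With background shares this low, finding none among 88 genes does not show that members lack these elements more than other genes. Member promoters were poorer in GC, with a median of 33.8% against 39.8%, which bears on the share of every word and was not matched.

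The words can also be set beside each other for subunits with and without a called replicate 2 promoter summit. Of the 28 members with a replicate 2 summit 11 had the E-box in the promoter window (39.3%), and of the 36 other members that are not L-named 9 had it. Motif 1 was at 17.9% of the first and 22.2% of the second, AAAGCT at 3.57% and 8.33%, GAGAG at 17.9% and 5.56%, and the DRE at 14.3% and 5.56%. Protein-coding genes with a replicate 2 summit had the E-box at 17.9%, Motif 1 at 10.8% and AAAGCT at 22.0%. They had GAGAG at 1369 of 4318 (31.7%) and the DRE at 12.2%. Over all protein-coding genes the shares were lower: 14.2%, 7.09%, 15.8%, 3219 of 13968 and 8.08%, in the same order. Higher shares of GAGAG and the DRE at genes with a summit were thus not particular to members. The window's TSS is not always the one next to the summit. Motif 1 thus counted as absent at *UQCR-C2*, *ND-SGDH* and *UQCR-Q*, with matches at -26, -6 and 33 bp from the TSS next to the summit. The DRE at *ND-15* and *ND-SGDH* and the E-box at *UQCR-C2* were missed the same way. The shares of members with a summit therefore depend on the TSS taken, and no difference was tested. The bound members had a median GC content of 38.6% and the other 36 of 33.8%. Over protein-coding genes the median was 43.8% with a replicate 2 summit and 39.8% in all.

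Other genes of the pathway were counted the same way, from lists of 35 symbols of which 33 were matched. Of 10 subunits and electron carriers named outside the symbol rule, 6 had a replicate 2 summit and none a replicate 1 summit. They are *blw* (the alpha subunit of the ATP synthase, rank 4896), *Cyt-c1* (4307), *RFeSP* (4410), *ox* (4862) and the cytochrome *c* genes *Cyt-c-p* (2266) and *Cyt-c-d* (3847), whereas *sun*, *knon*, *levy* and *cype* had none. Of 11 enzymes of the tricarboxylic acid cycle, 8 had a replicate 2 summit and 3 also one in replicate 1. These 3 were *Mdh2* (malate dehydrogenase, ranks 235 and 338, fold enrichments 12.3 and 69.2), *Ogdh* (ranks 596 and 549, 6.91 and 58.6) and *ScsbetaA* (ranks 1348 and 1018, 2.92 and 29.4). Of 8 genes for mitochondrial genome expression and its regulators 4 had a replicate 2 summit: *srl* (the fly PGC-1, rank 3982), *ewg* (of the NRF-1 family, 2471), *Ets97D* (4819) and *PolrMT* (4048). Of 4 assembly factors *sicily* had one, at rank 6607. Beside these, 22 of 73 mitochondrial ribosomal protein genes (30.1%) and 9 of 22 vacuolar ATPase genes (40.9%) had a replicate 2 summit, and 0 and 1 a replicate 1 summit. The background is again 30.9% and 5.50%, and none of these lists was tested against it.

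Members without a summit numbered 60 in replicate 2. For 9 of them a summit lay within 1000 bp of a TSS, and for 51 none did. The median distance over the 60 was 5751 bp and the largest 139760 bp. A missing peak is a peak not called at an unknown depth and does not show that Lola-I is absent.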

How the data were processed

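The authors deposited 1 peak list for each Lola-I library of wild-type embryos at 14 to 17 h, without a header, in the narrowPeak layout. Per the submitters' processing notes the build is dm6, and CASAVA 1.8.2 and Bowtie 1.0.0 were used. The peak caller, its control and its filters are not given in the sources used here. The authors' score is the −log10 p-value multiplied by 10 and truncated, which held for every peak of both lists (1759 and 9674). By the layout, the deposited fold enrichment is a ratio, whose denominator is not given, and the deposited −log10 q-value stands beside the −log10 p-value. Summit positions follow from the authors' offsets.

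Gene models were those of Ensembl release 115 (BDGP 6.54). The genome sequence was RefSeq Release 6, the same assembly as dm6, and peak ends lie within its arm lengths. Ranks follow the −log10 p-value within each list. Transposable elements were left out. Words were matched exactly. The assignment of summits to genes was tested on simulated peaks, and 100 of 100 placed within 200 bp were recovered. Software versions were matplotlib 3.10.9, SciPy 1.17.1, NumPy 2.4.6 and Python 3.11.15. The lists hold no read counts, so the depth is unknown.

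The members and lists were chosen with earlier results of these data known. Genes were named by rule: members with a summit in both lists, the 10 ranked highest in replicate 2 and 5 in replicate 1, the 3 nearest to the 200 bp limit on each side, *SdhA* to *SdhD*, complexes with 5 or fewer bound members, and the fourth chromosome. The other bound subunits, the duplicates, the role groups and the genes inside which summits lay were named after their values were seen. *ND-MNLL* ends in L without being a duplicate and was counted with the subunits, a choice made after the lists were seen.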

Additional observations from a re-analysis of the deposited data

Results flagged for a closer look

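The rule for the gene set leaves out the subunits encoded in the mitochondrial genome, and peaks there entered no comparison. Replicate 1 held 2 peaks on it and replicate 2 held 0. They lay in the genes of 2 subunits of complex IV, *mt:CoI* (M from 1776 to 1943, summit at 1851) and *mt:CoII* (3506 to 3710, summit at 3594). Their fold enrichments were 1.94 each, ranks 1753 and 1752 of 1759 by fold enrichment, although by score they ranked 766 and 854. No control library was analysed here, and where the reads of these peaks come from was not tested.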

How the results depend on the processing

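Depth is unknown, so a peak that was not called cannot be told from a site without binding, and the replicate 1 counts rest on 2 genes. No paired analysis was possible because a single group was analysed. Among the counts, the replicate 2 number stayed at 28 within 100 bp and reached 33 and 37 within 500 and 1000 bp, against 26.6%, 37.3% and 41.1% of protein-coding genes. Within 1000 bp replicate 1 and both lists gave 4 each (protein-coding genes, 8.66% and 8.35%), with *COX7AL2* and *ND-B14.5B* added, and the duplicates with a replicate 2 summit numbered 1 within 500 bp and 2 within 1000 bp. With nearest-TSS assignment 23 of 88 genes were left, a share below the 28.4% of protein-coding genes, where the main share was above. With only the TSS shared by most transcripts (the upstream one where tied), *UQCR-Q* dropped out, leaving 1 gene in replicate 1 and 1 in both lists (4.35% and 4.03%). In replicate 2, *ND-15* dropped out as well, leaving 26 members, against 27.5% of protein-coding genes. The higher-scoring 50% of each list left 9 members, all of them subunits, against 17.6% of protein-coding genes. A replicate 2 list as short as replicate 1 left 4, against 6.41%. Counting intervals that cover a TSS gave 1 duplicate, *COX7AL2*. Summits with no other gene's TSS within 200 bp, an alternative added after seeing the data, left 18. Reciprocal overlap of at least 50% left 1 gene in both lists, against 3.24%. Leaving out a replicate leaves no count for both lists, only the count of the remaining list, 28 for replicate 2 and 2 for replicate 1. The median percentile of member peaks was 40.5, against 53.9 at protein-coding promoter peaks. Within the higher-scoring 50%, a shorter list with its own ranks, it became 63.0 against 48.3. The order of members and protein-coding genes was thus reversed there, with 9 members left. With words sought within 50 bp of the summit in place of 100 bp, for these words also added after seeing the data, Motif 1 was at 21.4% of member summits and 6.29% of all protein-coding promoter summits, and the E-box at 28.6% and 11.6%. AAAGCT stayed at 3.57%, against 18.1%.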

Other observations

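Summits inside member genes but more than 200 bp from any of their TSSs were found at 2 members in replicate 1 and 6 in replicate 2. The share over all protein-coding genes was not computed, and short genes leave little room for such summits. *ND-15* had 3 such summits in replicate 1 and 7 in replicate 2. Its annotation spans 41305 bp because it holds TSSs far apart. *COX7AL2*, an L-named duplicate of 5388 bp, had 4 and 5. The other 4 genes, *ND-39*, *ND-MWFE*, *COX7C* and *ATPsynC*, had 1 each in replicate 2. Whether those summits belong to genes nested in the same regions was not examined.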
